A study of Homo sapiens with 6 samples.

Results

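The genes of the cytosolic ribosomal proteins were examined for H3K4me3, the histone mark of active and poised promoters, and for H3K27me3, the mark laid down by Polycomb repressive complex 2. The members are the protein-coding genes on chromosomes 1 to 22 whose symbols begin with RPL or RPS in the form used for ribosomal proteins, and 72 of 19126 protein-coding genes met this rule. They comprise 43 genes of the large subunit, 3 of which (RPLP0, RPLP1 and RPLP2) encode the stalk proteins, and 29 genes of the small subunit. Another 4 genes that match by symbol lie on the X chromosome and stand outside the rule.

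Chromatin was taken from endothelial cells that were derived from H1, an established human embryonic stem cell line, and were labelled positive for GATA2, a regulator of early blood and vessel cells. The labels name 1 condition Vc- and the other Vc+, and from the title of the series Vc is vitamin C, on which many histone and DNA demethylases depend. Dose and time of Vc are not given in the sources used here. Each condition has 1 H3K4me3 library, 1 H3K27me3 library and 1 input, and a list of enriched islands was analysed for the 4 mark libraries. With 1 library for each mark and condition there is no replicate check, no test between conditions and no p-value, so every difference below is a difference between 2 libraries, and other sources of a difference between them cannot be told apart from Vc. For all 4 lists the name of the file states the other condition than the label of its sample. Libraries are called by their labels below, as the Vc- library and the Vc+ library, and every direction is reversed if the labels are the ones in error.

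The ribosome joins a small subunit, which reads the messenger RNA, to a large subunit, which forms the peptide bond, and each subunit needs its proteins in equal number. The genes for these proteins are scattered over the genome, are transcribed strongly in nearly every growing cell, and are not known as Polycomb targets, so their promoters serve as a baseline for H3K4me3. Their transcripts are known for a terminal oligopyrimidine tract, a run of C and T that starts with C at the first base and places translation under the control of the mTOR pathway. Loss of 1 copy of several of them causes Diamond-Blackfan anaemia, a failure of red cell production.

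Most starts of the members carry this tract in the reference sequence. RefSeq gave a start and promoter sequence for 57 of the 72 members. For each, 250 bases before and 50 bases from the start were read, at the outermost start where a gene had several. The start base was C in 43 of 57 members (75.4%) and in 11.3% of the 15101 protein-coding genes with an entry. A start at C followed without a break by pyrimidines, at least 5 bases in all, was found in 39 members (68.4%) and in 4.58% of all genes. Within 20 bases of the start the longest pyrimidine run had a median of 11 bases in the members and of 5 bases in all genes, and it ranged from 4 bases at RPL13 and RPL15 to 25 bases at RPL7A.

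The starts of 7 members are shown because these genes are described below and because together they show the tract and 4 of the 6 motifs counted next. Each line gives 80 bases before the start and 20 bases from it, 5′ to 3′ on the strand of the gene, from RefSeq for build GRCh38.p14, and capitals mark the longest pyrimidine run within 20 bases of the start.
RPS19 (chr19:41860175-41860274, plus strand): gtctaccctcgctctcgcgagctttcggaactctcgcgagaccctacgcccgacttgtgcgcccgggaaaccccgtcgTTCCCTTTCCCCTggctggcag
RPS14 (chr5:150449720-150449819, minus strand): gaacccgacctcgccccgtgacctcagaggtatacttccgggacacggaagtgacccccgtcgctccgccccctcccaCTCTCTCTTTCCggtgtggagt
RPS6 (chr9:19380217-19380316, minus strand): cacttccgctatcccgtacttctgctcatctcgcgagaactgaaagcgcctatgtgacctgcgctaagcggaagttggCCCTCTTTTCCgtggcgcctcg
RPLP0 (chr12:120201092-120201191, minus strand): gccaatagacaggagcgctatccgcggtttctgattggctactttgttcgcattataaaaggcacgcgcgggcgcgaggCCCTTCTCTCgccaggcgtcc
RPL13A (chr19:49487528-49487627, plus strand): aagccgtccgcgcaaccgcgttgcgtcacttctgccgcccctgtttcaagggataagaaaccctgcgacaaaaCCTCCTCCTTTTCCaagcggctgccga
RPL41 (chr12:56116553-56116652, plus strand): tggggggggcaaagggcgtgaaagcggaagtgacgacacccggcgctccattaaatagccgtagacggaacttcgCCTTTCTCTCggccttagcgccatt
RPL11 (chr1:23691699-23691798, plus strand): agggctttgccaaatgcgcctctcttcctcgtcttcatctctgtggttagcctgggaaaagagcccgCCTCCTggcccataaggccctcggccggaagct

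In 6 of these 7 stretches the run spans the start, and at RPL11 the outermost RefSeq start has no such tract. Of 6 motifs searched on both strands of the 300 bases, TCTCGCGA was held by 11 of 57 members (19.3%), RPS19 and RPS6 among them, and by 1.71% of all promoters of that length. CCGGAAG, a core of ETS factor sites, was held by 20 members (35.1%), RPS14 and RPL11 among them, and by 14.3% of all promoters. AAGATGGCG, a YY1-like motif, was found in 5 members (8.77%) against 2.74%. TATAAA was found in 5 members (8.77%), RPLP0 among them, against 9.83%, GGGCGG in 30 (52.6%) against 58.7%, and the palindromic NRF1 motif in 1 (1.75%) against 1.78%. None of the motifs contains another. The C and G content had a median of 58.7% in the members and of 62.7% in all promoters, and the ratio of observed to expected CG pairs was 0.91 and 0.77. Genes with H3K4me3 in both libraries and H3K27me3 in neither had 8585 such promoters. There the shares with the motifs, in the order above, were 2.62%, 21.6%, 4.31%, 5.38%, 71.4% and 2.68%. The C and G content was 65.3% and the CG ratio 0.85. The sequence counts describe the reference and were not measured in the cells.

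H3K4me3 was found at nearly every member. An island, which is a run of enriched windows joined into 1 stretch by the submitters' caller, lay within 1 kb of an end of the gene at 72 of 72 members in the Vc- library (70.8% of all genes) and at 71 of 72 in the Vc+ library (71.3% of all genes). Of the members, 98.6% (exact Clopper-Pearson 95% interval 92.5 to 100, counting error only) carried it in the Vc+ library. All 43 large subunit genes carried it in both libraries, while over all genes 70% did.

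The single exception was RPS9, a protein of the small subunit. At RPS9 (NCBI gene 6203, GRCh38 chromosome 19, 54200858 to 54207647) the Vc- library had an island of 1 kb (54200401 to 54201400) with a score of 34.4, the authors' −log10 of a false discovery rate, which stood at percentile 33.2 of the islands of its list. In the Vc+ library the nearest island lay 9.06 kb from an end of RPS9. Other genes close to it ranked low too: over the 23 protein-coding genes within 250 kb, islands at 9 genes had a median percentile of 31.6 in the Vc- library, and islands at 7 genes had one of 30.8 in the Vc+ library, where the median of all genes was 71.3 and 71.1. RPS18, also of the small subunit, had the lowest rank of the members with an island in both libraries, at percentiles 33.7 and 37.4, and 15 genes within 250 kb of it had medians of 40.2 and 44.2. These neighbourhoods were looked at after the values of RPS9 and RPS18 had been seen, and their part in the low ranks was not tested.

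The islands of the members were wider than those of most genes. Width was read at the RefSeq start, or at either gene end where no start was given, which left 70 members with an island in both libraries. RPS9 had none in the Vc+ library, and at RPL6 the RefSeq starts lie inside the gene, away from its islands. The median width was 2.8 kb in the Vc- library (range 1.4 to 6.2 kb) and 3.1 kb in the Vc+ library (1.4 to 6.2 kb). Over the 13332 genes with an island in both libraries it was 2.2 and 2.4 kb. The width of 54 of the 70 members lay above the median gene in each library. The middle 50% of members ran from 2.4 to 3.4 kb and from 2.6 to 3.8 kb, so that many genes outside the list had islands as wide as these.

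**Figure D1:**
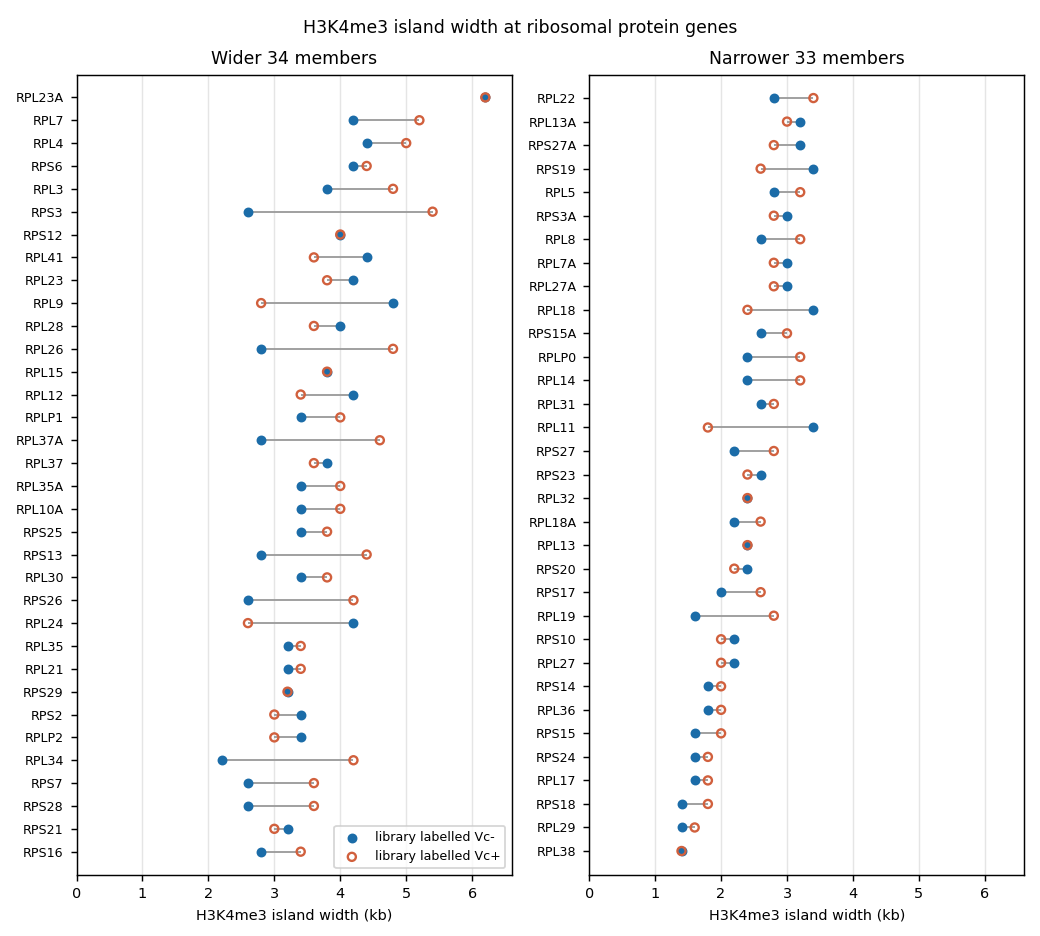
Width of the H3K4me3 island in kb (x axis) at each of 67 of the 70 members (rows, ordered by mean width, the wider 34 on the left), with filled points for the Vc- library and open points for the Vc+ library, 1 library each. Most pairs of points lie close together between 2 and 4 kb, and RPS3, RPL34 and RPL26 move right and RPL9, RPL24 and RPL11 move left in the Vc+ library.

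The 5 widest islands lay at RPL23A, RPL7, RPL4, RPS6 and RPL3. RPL4, which lines the tunnel through which the new peptide leaves, had islands of 4.4 kb in the Vc- library and 5 kb in the Vc+ library at its start (chromosome 15, 66501601 to 66506000 and 66501601 to 66506600). RPL3, which reaches towards the peptidyl transferase centre, had 3.8 and 4.8 kb. RPS6, the small subunit protein that is phosphorylated by S6 kinase, had 4.2 and 4.4 kb, and RPL7 of the large subunit 4.2 and 5.2 kb. RPL23A, at the exit of the tunnel, had 6.2 kb in both libraries, but there the widest island lay at opposite ends of the gene and neither value belongs to a known start. At RPL4, RPL3, RPS6 and RPL7 the island of the Vc+ library was the wider. In both libraries the islands of RPL4, RPL7 and RPL23A also held an end of another gene (ZWILCH at RPL4), so these widths cannot be assigned to 1 gene.

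The narrowest islands lay at RPL38, with 1.4 kb in both libraries, at RPL29, with 1.4 and 1.6 kb, and at RPS18, with 1.4 and 1.8 kb. RPL38, a protein of the large subunit known for its part in the translation of HOX messages, showed the same edges in both libraries (chromosome 17, 74203601 to 74205000). RPS24, which is mutated in Diamond-Blackfan anaemia, had 1.6 and 1.8 kb, as did RPL17. None of these 5 differed by more than 2 windows of 200 bp, the step in which islands were called.

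The subunits overlapped in width. The large subunit had a median of 3.2 kb in both libraries over 42 genes, and the small subunit had 2.6 and 3 kb over 28. The median ratio of widths, Vc+ over Vc-, was 1.07 and 1.12 in this order.

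Next, the islands were placed against the start of transcription for the 55 members with a RefSeq start and an island in both libraries. From the start the islands reached a median of 0.99 kb upstream in each library, and 1.87 kb (Vc-) and 1.91 kb (Vc+) downstream, into the gene. Over 10817 genes the upstream medians were 0.79 and 0.86 kb and the downstream medians 1.29 and 1.44 kb. The island reached farther downstream than upstream in 48 of 55 members (87.3%) in the Vc- library and in 47 (85.5%) in the Vc+ library, against 74.8% and 75.9% of all genes. The 5 members RPL28, RPLP2, RPS21, RPS25 and RPS29 reached farther upstream in both libraries. At RPL28, RPLP2, RPS25 and RPS29 the island also held an end of another gene in both libraries, and at RPS21 it did not.

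**Figure D2:**
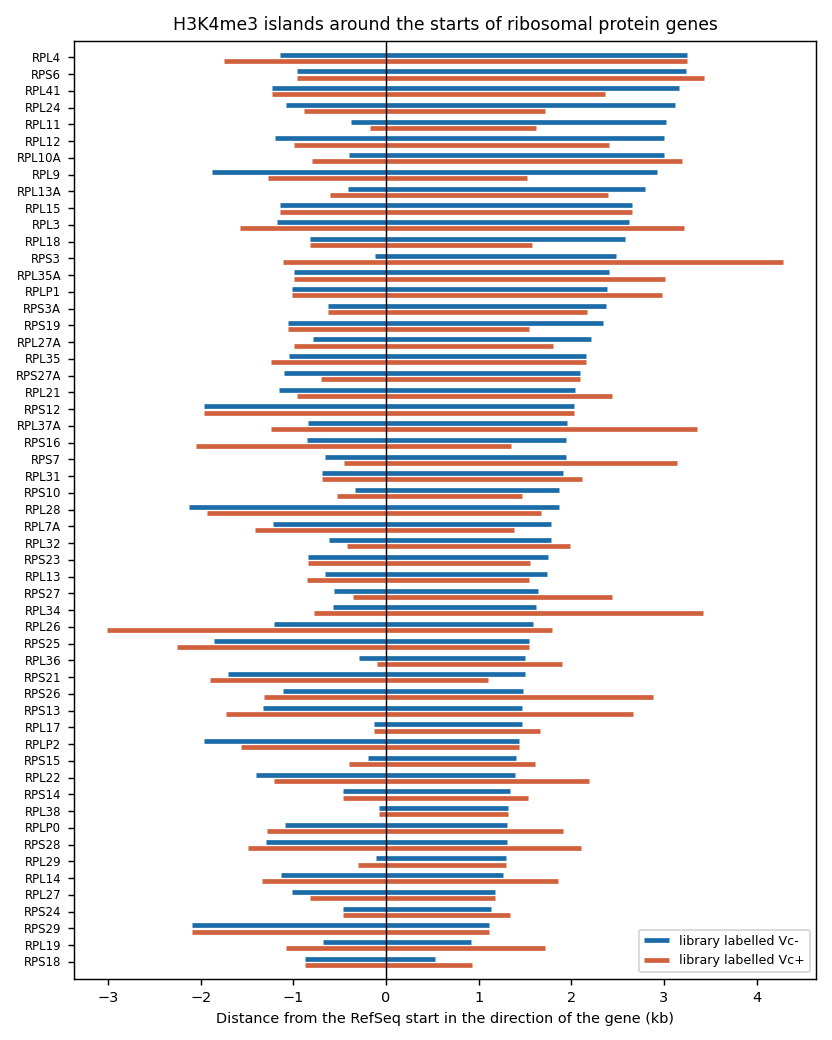
Extent of the H3K4me3 island around the RefSeq start (vertical line at 0, x axis in kb in the direction of the gene) for 55 members (rows), blue for the Vc- library and orange for the Vc+ library. Islands mostly reach farther to the right, into the gene, and the right-hand edge of RPS3 and RPL34 lies farther out in the Vc+ library while that of RPL11, RPL24 and RPL9 lies farther in.

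The members are short genes, with a median span of 4.75 kb against 24.5 kb for all genes. H3K4me3 covered a median of 42.2% of the span in the Vc- library and 47.3% in the Vc+ library, against 2.82% and 3.18% over all genes. Over genes with H3K4me3 in both libraries, H3K27me3 in neither and a span within the range of the members, the medians were 12.6% and 14%, and the median span was 12 kb. The whole span lay inside H3K4me3 at 6 members in the Vc+ library (8.33%, 1.43% of all genes): RPL10A, RPL36, RPL41, RPS26, RPS27 and RPS28. At RPL36, RPL41, RPS27 and RPS28 the island of the Vc+ library also held an end of another gene. RPL41, which encodes the smallest ribosomal protein, spans 1.34 kb (gene 6171, chromosome 12, 56116633 to 56117967). Its island ran from 56115401 to 56119800 (4.4 kb) in the Vc- library and to 56119000 (3.6 kb) in the Vc+ library. In both libraries it held an end of ZC3H10.

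Some members shared an island with a neighbour. The island held an end of another protein-coding gene at 23 of 72 members (31.9%) in at least 1 library. The share was 25.7% of the 13332 genes with an island in both. Over genes with H3K4me3 in both libraries and H3K27me3 in neither it was 28.8%. Among those with a span within the range of the members it was 34.5%, above the members. Examples are RPS18 with VPS52, RPL9 with LIAS, RPS27A with CLHC1 and RPS29 with LRR1, and at RPL17 and RPS10 the second gene is an annotated read-through of the same locus. Where an island is shared, its width cannot be assigned to either gene. A small nucleolar RNA gene lay inside the span of 26 members (36.1%, 2.64% of all genes), with 4 in RPL13A, RPL3, RPL4, RPL7A and RPL23A, among others. These hosts had a median width of 3.1 kb (Vc-) and 3.3 kb (Vc+), and the other members 2.7 and 3 kb.

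Between the conditions the members did not move as a body. The median ratio of widths, Vc+ over Vc-, was 1.11 over 70 members (range 0.53 to 2.08) and 1.09 over all 13332 genes. The island was wider in the Vc+ library at 40 members (57.1%, 57.6% of all genes), equally wide at 7 (10%, 16.1% of all genes) and narrower at 23 (32.9%, 26.3% of all genes). The islands compared did not overlap at 2 of these members, RPL23A among the equal and RPS2 among the narrower, and at 114 of the 13332 genes. The whole list of the Vc+ library covered 48.2 Mb and that of the Vc- library 43.3 Mb. A ratio of 1.5 or more was reached by 8 members (11.4%, 12.7% of all genes), and a ratio of 1/1.5 or less by 3 (4.29%, 3.32% of all genes). These shares lie near those of all genes, so no width change particular to the members was seen.

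**Figure D3:**
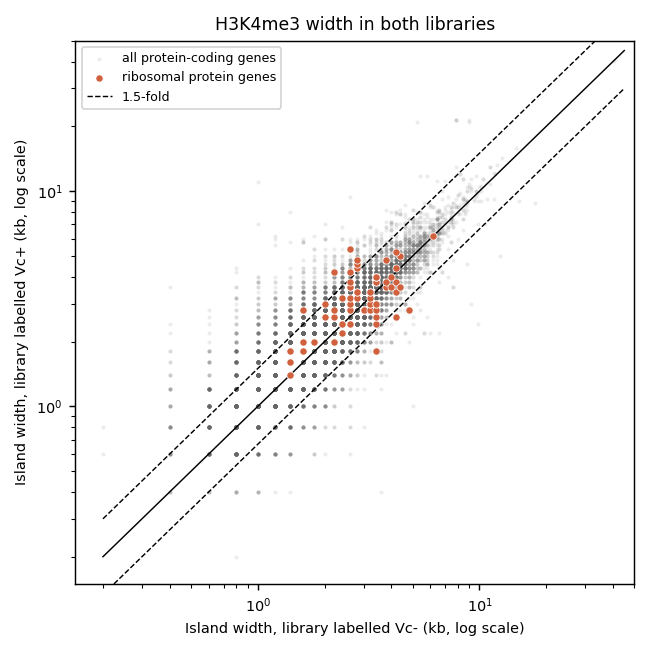
H3K4me3 island width in the Vc- library (x axis, kb, log scale) against the Vc+ library (y axis, kb, log scale) for 70 members (orange) and 13332 protein-coding genes (grey), with a solid line at equal width and dashed lines at 1.5-fold. The members spread along the line of equal width among the other genes, with 8 on or above the upper dashed line and 3 below the lower one.

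The largest gains lay at RPS3 and RPL34. At RPS3, a small subunit protein at the entry of the messenger RNA (gene 6188, chromosome 11, 75399518 to 75422302), the island was 2.6 kb wide in the Vc- library and 5.4 kb in the Vc+ library, a ratio of 2.08. Its downstream edge stood 2.48 and 4.28 kb from the start and its upstream edge 0.12 and 1.12 kb. At RPL34 the widths were 2.2 and 4.2 kb (ratio 1.91). At RPL19 they were 1.6 and 2.8 kb (1.75) and at RPL37A 2.8 and 4.6 kb (1.64). At RPL26, which is mutated in Diamond-Blackfan anaemia, they were 2.8 and 4.8 kb (1.71), with the upstream edge at 1.21 and 3.01 kb, and the island of the Vc+ library joined 2 islands of the other. RPS26, with 2.6 and 4.2 kb (1.62), and RPS13, with 2.8 and 4.4 kb (1.57), were also among the 8. In 6 of the 7 with a known start the downstream edge moved by more than the upstream edge. This was also so in 28 of 45 members that changed by less than 1.5-fold in either direction. In none of the 8 did the island hold an end of another gene, against 22 of the 59 members that changed by less. These differences were not tested.

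The 3 losses were RPL11, RPL9 and RPL24, all of the large subunit. At RPL11, which with RPL5 can bind the ubiquitin ligase MDM2 (gene 6135, chromosome 1, 23691779 to 23696835), the island was 3.4 kb wide in the Vc- library (23691401 to 23694800) and 1.8 kb in the Vc+ library (23691601 to 23693400), a ratio of 0.53. The widths were 4.8 and 2.8 kb at RPL9 (0.58) and 4.2 and 2.6 kb at RPL24 (0.62). At RPL9 the island held an end of LIAS in both libraries, so its width cannot be assigned to 1 gene. In all 3 the downstream edge drew in by 1400 bp, and the upstream edge by 200 to 600 bp. At RPL9 and RPL24 the island of the Vc- library overlapped 2 islands of the other library, so that part of the loss is a break within the stretch. Just outside the threshold stood RPL18 with 3.4 and 2.4 kb (0.71), and RPS19, the gene most often mutated in Diamond-Blackfan anaemia, had 3.4 and 2.6 kb (0.76).

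Other well-studied members differed by less than 1.5-fold. RPL5 had 2.8 and 3.2 kb, RPS14, the gene linked to the anaemia of the 5q deletion, 1.8 and 2 kb, and RPL13A, which can leave the ribosome to silence messages in inflammation, 3.2 and 3 kb. RPLP0, the base of the stalk, had 2.4 and 3.2 kb (ratio 1.33). RPL6, read at its higher-coordinate end, had 2.4 and 3 kb. Of 18 genes known from Diamond-Blackfan anaemia, 18 carried H3K4me3 in both libraries (70% of all genes), with a median ratio of 1.10. By 1.5-fold, 2 were wider (11.1%, 12.7% of all genes) and 1 was narrower (5.56%, 3.32% of all genes). H3K27me3 lay within 1 kb at 0 of them in either library, against 18.6% of all genes. With 18 genes the upper limit on this 0 is loose.

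Members with a wider island in 1 library were not always ranked higher there. The score depends on width and depth and was ranked within each list only. The islands of the members stood at a median percentile of 86.6 in the Vc- library (33.7 to 98.2) and 86.3 in the Vc+ library (37.4 to 98.7), against 71.3 and 71.1 for all genes. Ranked by score per kb of width the medians were 73.3 and 77.2, against 68.4 and 68.1. The ceiling score of 1000 was reached by RPL4, RPL7, RPL15 and RPS3 in the Vc- library (5.71%, 6.87% of all genes) and by RPL4, RPL9 and RPL15 in the Vc+ library (4.29%, 4.87% of all genes). RPS24 was among the 3 that ranked lowest, at percentiles 59.8 and 63.6.

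**Figure D4:**
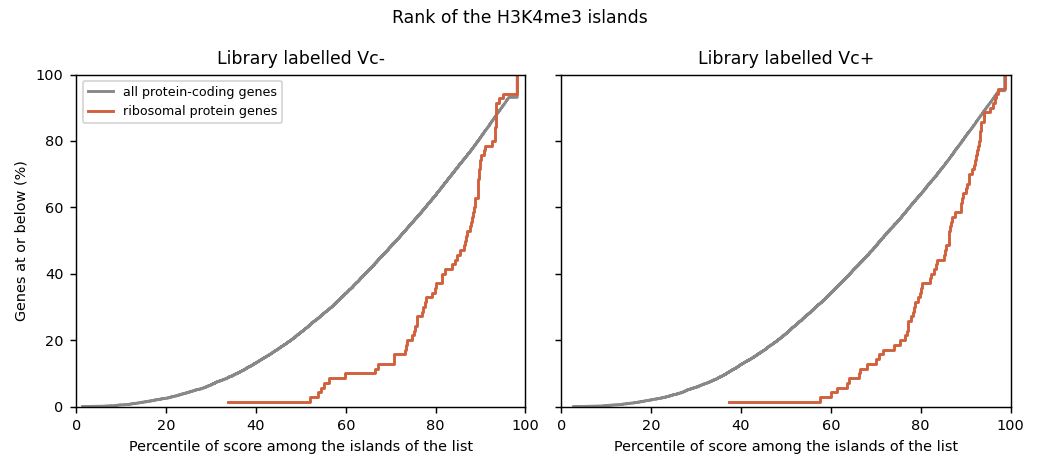
Cumulative share of genes (y axis, %) by the percentile of the score of their H3K4me3 island within its list (x axis), for 70 members (orange) and 13332 genes (grey), Vc- on the left and Vc+ on the right. The orange line lies right of the grey one over most of the range in both, and the lines cross near the top, where few members reach the ceiling score.

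At RPL11, RPL9 and RPL24, where the island was narrower in the Vc+ library, the percentile was higher there: 73.3 against 77.9 at RPL11, 88.8 against 98.7 at RPL9 and 86.3 against 91.9 at RPL24. At RPS3 it went from 98.2 to 93.2 and at RPL34 from 73.5 to 61.3. Over the 70 members, Spearman's rho between the ratio of widths and the change in percentile was -0.31, and over 13332 genes it was -0.01. Rank and width come from the same islands and genes are not independent replicates, so both values are descriptions. Between the libraries, rho of the widths was 0.57 over the members and 0.83 over all genes. The difference was not tested, and in the Vc- library the widths of the members ran from 1.4 to 6.2 kb and those of all genes from 0.2 to 40.4 kb, and rho depends on that range.

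H3K27me3 was nearly absent from the members. An island of this mark lay within 1 kb of a gene end at 1 of 72 members in the Vc- library (1.39%, exact Clopper-Pearson 95% interval 0.04 to 7.5, counting error only), against 15.7% of all genes. In the Vc+ library it lay at 3 of 72 (4.17%, interval 0.87 to 11.7), against 17.1% of all genes. None of the members had it in both, and 4 had it in either, against 18.6% of all genes. Within 1 kb of a RefSeq start it was found at 0 of 57 members in each library, against 13.4% (Vc-) and 14.7% (Vc+) of all genes. For this count of 0, 3 divided by 57 (5.26%) gives an approximate 95% upper limit on 1 side. That limit is not of the same kind as the exact intervals above.

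Of the members called in 1 library, 3 are described here. At RPL22, the large subunit protein that also acts in lymphocyte development, an island of 6.2 kb (Vc-) and 9 kb (Vc+) that held an end of CHD5 lay 1.02 and 0.62 kb beyond the far end of the gene. At RPS2 an island of 3.6 kb in the Vc+ library (chromosome 16, 1957801 to 1961400) with a score of 5.92 held an end of NDUFB10, and in the Vc- library the nearest lay 13.4 kb away. At both genes the island thus held an end of a neighbour.

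At RPL7 both marks met. Its H3K27me3 island in the Vc+ library (chromosome 8, 73293201 to 73297000, 3.8 kb, score 13.9) held the higher-coordinate end of RPL7 and an end of RDH10, a retinol dehydrogenase gene. In the Vc- library an island of 1.2 kb (73295601 to 73296800, score 11.7) lay 1.14 kb from that end. In each library the H3K27me3 island overlapped the H3K4me3 island at RPL7, which also held the end of RDH10, so the marks cannot be assigned to 1 of these genes. RPL7 was the only member whose widest H3K4me3 island had such an overlap, 1 of 71 and 1 of 70 islands. The shares of all genes were 17.7% (Vc-) and 19.7% (Vc+). Some members, RPS2 among them, had another H3K4me3 island near an end, which was not compared.

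Beyond the window the members were not set apart in the same way. The nearest H3K27me3 island lay a median of 123 kb from a gene end in the Vc- library and 115 kb in the Vc+ library, against 87.4 and 69.6 kb over all genes and 120 and 98.7 kb over genes with H3K4me3 in both libraries and H3K27me3 in neither. Within 10 kb there was an island at 10 members (13.9%) and 11 members (15.3%), against 22.6% and 25.1% of all genes. Over genes with H3K4me3 in both libraries and H3K27me3 in neither, which by that choice have no island within 1 kb, the shares were 7.54% and 9.08%, below those of the members. Among them RPS15 had one 5.11 and 5.31 kb away and RPS3 one 5.70 and 5.90 kb away.

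**Figure D5:**
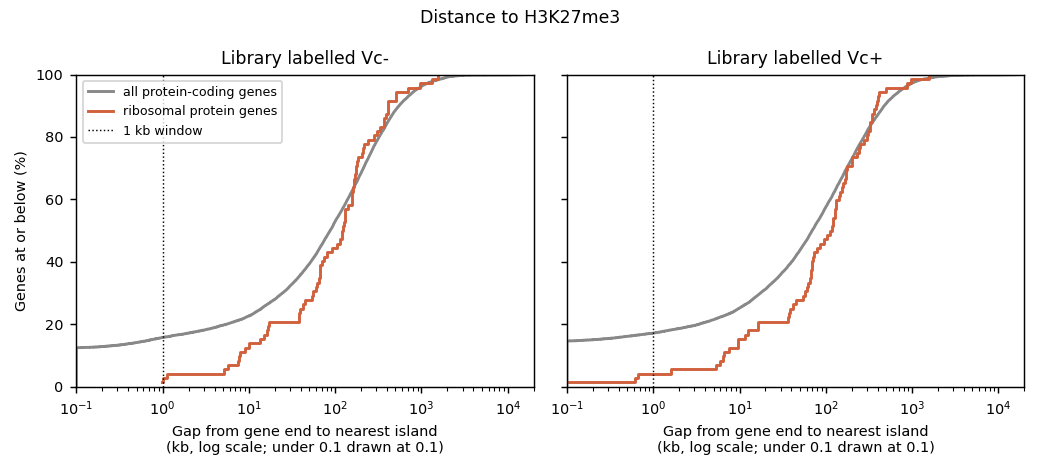
Cumulative share of genes (y axis, %) by the gap from a gene end to the nearest H3K27me3 island (x axis, kb, log scale, gaps under 0.1 kb drawn at 0.1), for 72 members (orange) and 19126 genes (grey), Vc- on the left and Vc+ on the right, with the 1 kb window dotted. The orange line starts far below the grey one within 1 kb and joins it beyond 100 kb.

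Related gene lists are given for scale. The 77 genes of the mitochondrial ribosomal proteins, which make the separate ribosome of that organelle, had H3K4me3 at 76 in each library, a median width of 2 and 2.2 kb and a median ratio of 1.11, with 11 wider and 1 narrower by 1.5-fold. The next list held 69 genes chosen by symbol alone, beginning with EIF or EEF as those of translation factors do. Of these, 65 carried H3K4me3 in both libraries (70% of all genes), with widths of 2.6 and 2.8 kb and a ratio of 1.10. All 29 genes of a ribosome biogenesis list, which includes MYC and LARP1, carried it in both, with 2.4 and 2.8 kb and a ratio of 1.07. So did 34 of 39 proteasome genes, with 2.4 kb in each library and a ratio of 1. H3K27me3 was called in both libraries at 1, 4, 0 and 2 genes of these lists, and at 2708 of all 19126 genes. The downstream medians were 1.09, 1.44, 1.41 and 1.43 kb in the Vc- library, against 1.87 kb for the cytosolic list.

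Of 8 other genes for proteins of the cytosolic ribosome that the rule left out, 7 carried H3K4me3 in both libraries. RACK1, a scaffold protein on the small subunit, had 8.4 and 9.2 kb. On the X chromosome RPL39 had 3.4 and 5.6 kb (ratio 1.65) and RPS4X 2.4 and 1.8 kb (0.75). Of 8 paralogues 6 carried H3K4me3 within 1 kb of a gene end in both, close to the 70% of all genes. RPL3L, the form of striated muscle, had 1.8 kb in each library, and RPL10L and RPL26L1 were not called. RPL26L1 did have an island at its RefSeq start, 2 kb wide in the Vc- library and 2.4 kb in the Vc+ library.

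Genes that mark the labelled cell type and others were also read. H3K4me3 was called at 12 of 12 endothelial markers and 0 of 9 blood markers in each library, at 2 of 5 pluripotency markers in each, and at 3 and 2 of 6 markers of fibroblasts and mural cells. Over all genes the shares were 70.8% (Vc-) and 71.3% (Vc+). H3K27me3 was called at 3 (Vc-) and 5 (Vc+) of the 12 endothelial markers and at 0 and 1 of the 9 blood markers. It was called at 0 markers of the other lists, against 15.7% and 17.1% of all genes. The lists held 22307 and 21991 H3K4me3 islands and 8990 and 9639 H3K27me3 islands (Vc- first), and their read depth is unknown.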

How the data were processed

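The 4 deposited lists hold 1 island per line, with a position and a score, read here as the −log10 of the authors' false discovery rate because of its values (just above 2 to about 309, then 1000). The submitters' processing notes name Bowtie2, SICER and deepTools and the builds hg38 and GRCh38, with no role, version or setting. Deposited widths are multiples of 200 bp and depth is not given in the sources used here. Groups follow the sample titles, and the 2 inputs were not used. Antibodies against H3K27me3 alone appear in the labels' protocol, though samples of both marks are labelled, and the design text of the series speaks of reporter positive and negative cells where the labels say positive throughout.

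Positions were counted from 1. Genes came from RefSeq (GRCh38.p14), chromosomes 1 to 22. An island within 1 kb of the first or last base of a gene marked that gene. Width is that of the widest island overlapping 1 kb on either side of the outermost RefSeq start (57 members), or of either gene end without one (15 members). A width ratio of at least 1.5, or at most 1/1.5, counted as a change. Percentiles are mid-ranks within a list, over chromosomes 1 to 22 and X. Intervals cover counting error only.

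The members and lists were chosen with earlier results of these data known. Members were named by rule: differing H3K4me3 calls, any H3K27me3 call, the 3 nearest H3K27me3 islands, the 5 widest, the 5 narrowest, the 5 largest ratios in each direction, the 3 lowest percentiles and 8 fixed genes. Other members were named after their values were seen. Values of some genes are not reported here. No test was made. Alternatives covered windows, gene end, island choice, thresholds and list length. The code was tested on simulated data from the H3K4me3 library labelled Vc-: 199 of 200 islands changed 2-fold were recovered among 19126 genes, with 1 false call. Each of the 200 had been chosen for 1 gene only and had no other island close by, so shared, split or joined islands were not covered. Calls in that library differed from bedtools 2.31.1 at 0 genes. Python 3.11.15, numpy 2.4.6, pandas 2.3.3 and matplotlib 3.10.9 were used.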

Additional observations from a re-analysis of the deposited data

How the results depend on the processing

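For 17 results, 64 alternative values were computed. Of these, 50 stayed within the 95% binomial interval of the reported value (for counts, within 1.5 times) and 14 moved. A change of direction could be scored only for the median ratio of widths, which stayed above 1 in each of its alternatives. H3K27me3 calls followed the window: with 500 bp there were 0 (Vc-) and 1 (Vc+), with 2 kb 3 in the library labelled Vc-, and with 10 kb 10 and 11. The number of members wider in the library labelled Vc+ was 18 at the lower fold tried (5/4) and 1 at the upper fold of 2, and the number narrower was 5 and 0. Limited to islands matched 1 to 1 between the libraries, 1 member was narrower, because RPL9 and RPL24 drop out. Among genes without H3K27me3 in either library, 11.4% were wider and 2.98% narrower. Ranked by score per kb, the members' median percentile was 73.3 (Vc-) and 77.2 (Vc+). Leaving out members without a RefSeq start, or RPS2 and RPL23A, whose widest islands lay apart in the libraries, was added after the data were seen and moved no value past these limits. No paired analysis was possible because each group has 1 library. Neither depth nor reads per island are known, so the precision of an island's edges is not known.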
